A study of Mus musculus with 8 samples.

Results

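The 10 genes described here belong to the TGF-beta and BMP signalling pathways: the ligands Tgfb1 and Bmp6, the receptors and co-receptors Tgfbr2, Bmpr2, Acvrl1 and Eng, the inhibitory Smads Smad6 and Smad7, and the target genes Id1 and Id3. They were taken by gene symbol from the 31053 genes in the deposited single-cell count matrices, and each symbol matched 1 row. The data are from the cortex of 8-week-old mice in 4 groups: Lama4-/- mice and their wild-type (WT) control, and Tek-Cre:Lama5-/- mice and a WT control of their own, with the brains of 3 mice pooled for each group. They are called the Lama4 KO, the Lama4 WT, the Lama5 KO and the Lama5 WT. Lama4 and Lama5 encode the alpha chains that name the laminin isoforms of the vascular basement membrane. Tek-Cre is a recombinase under the Tek promoter, which is active in endothelial cells and also in part of the blood lineage, so the Lama5 deletion follows that promoter and not the whole animal. Strain, sex and litter are not given in the sources used here.

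In the TGF-beta and BMP pathways, secreted dimeric ligands bring type I and type II receptor kinases together on the cell surface, and the type I kinase phosphorylates receptor Smads that enter the nucleus. Endothelial cells carry the type I receptor ALK1 (encoded by Acvrl1) and the co-receptor endoglin (encoded by Eng), which bind circulating BMPs, and loss of function in either gene causes hereditary haemorrhagic telangiectasia, a disease of arteriovenous malformations. The Id genes are direct targets of BMP Smads, and Smad6 and Smad7 are induced by the pathway and inhibit it.

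The promoter windows of Eng and Smad6 are shown because both genes had their highest endothelial level in the arterial-like zone of every library, as described further on. Each is the 250 bases before the gene's annotated start in RefSeq, build GRCm38.p6, read 5′ to 3′ on the gene's own strand, Eng at chr2:32646345-32646594 on the plus strand and Smad6 at chr9:64022060-64022309 on the minus strand. Capitals mark the SMAD half-site CAGAC or its reverse GTCTG.
Eng: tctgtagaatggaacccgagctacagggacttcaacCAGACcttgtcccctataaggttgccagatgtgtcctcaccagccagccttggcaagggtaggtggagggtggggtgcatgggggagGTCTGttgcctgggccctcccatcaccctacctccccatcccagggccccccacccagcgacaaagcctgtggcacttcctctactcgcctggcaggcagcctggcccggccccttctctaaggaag
Smad6: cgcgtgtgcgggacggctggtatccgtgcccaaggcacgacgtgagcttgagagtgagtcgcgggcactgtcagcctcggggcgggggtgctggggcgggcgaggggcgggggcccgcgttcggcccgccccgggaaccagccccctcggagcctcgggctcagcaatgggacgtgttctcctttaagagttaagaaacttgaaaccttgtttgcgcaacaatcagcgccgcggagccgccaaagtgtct
Of the 10 genes, 7 had an entry in this promoter table. Id1, Acvrl1 and Smad7 are named only. On both strands, CAGAC was in the windows of 4 of the 7 (Eng, Id3, Tgfbr2 and Bmp6) and in 42.2% of all 32851 windows. The palindrome GTCTAGAC, which shares AGAC with the half-site but does not contain it, was in 0 of the 7 and in 0.167% of all windows. GGCGCC, a motif described for BMP Smads, was in the Bmpr2 window and in 9.59% of all windows. The Smad6 window held none of these 3 motifs, and a match in these letters is a description, not a site.

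The 2 deposited Lama4 KO samples held identical matrices and were counted as 1 library, which left 7 distinct libraries with 35479306 to 48314458 UMIs and 5105 to 7970 cells kept in each. Library pairs shared 5 to 22 cell barcodes. Endothelial-like cells numbered 2220 to 5105 per library. The 9 endothelial markers, among them Cldn5 and Pecam1, summed to 19280 to 24370 CPM (counts-per-million) in them and the 11 pericyte markers to 32.3 to 51.3 CPM. Lama4 was at 46.5 and 44.1 CPM in endothelial-like cells of the Lama4 WT and at 0.059 CPM in the Lama4 KO. Lama5 was at 42.6 and 41.6 CPM in the Lama5 WT and at 22.9 and 23.8 CPM in the Lama5 KO, but which part of the gene is deleted is not given in the sources used here, and 3′ tags outside it check nothing. The experiments stood apart: the summed level of 16 dissociation and immediate-early genes (among them Fos and Jun) in endothelial-like cells was 13020 to 14090 CPM in the Lama4 experiment and 21710 to 24070 CPM in the Lama5 experiment. Median UMIs per cell were 5312.5 to 6607 in the first and 2945 to 3877.5 in the second. The libraries of a group came from 1 pool of mice, so every p-value compares pools and leaves out the spread between mice.

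Across the 9 cell classes compared, 5 of the 10 genes were highest in endothelial-like cells with no overlap with another of them over the 7 libraries: Id1, Smad6, Eng, Acvrl1 and Bmpr2. Levels are a class's summed UMIs in each library as CPM of its total, given as the lowest, the median and the highest library. The classes compared are the 9 with at least 20 cells in every library. Fibroblast-like, choroid plexus-like, B lineage-like, T or NK-like, monocyte or dendritic-like and neutrophil-like cells are outside this order. Among the 9, Tgfb1 was highest in microglia-like cells, Smad7 in oligodendrocyte-like cells and Bmp6 in ependymal-like cells. Id3 and Tgfbr2 had several classes at the top whose ranges overlapped.

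Of the ligands, Tgfb1, the TGF-beta isoform made by many immune and endothelial cells, was at 345, 352 and 371 CPM in microglia-like cells. Perivascular macrophage-like cells followed at 168, 208 and 243 CPM, endothelial-like cells at 100, 141 and 153 CPM and pericyte-like cells at 66.5, 84.7 and 94.0 CPM. These 4 classes did not overlap with their neighbours in this order. Outside it, B lineage-like cells held Tgfb1 at 269 and 387 CPM in the Lama4 WT and at 426.5 CPM in Lama5 KO library 2. Monocyte or dendritic-like cells held it at 234 and 247 CPM in the Lama4 WT and at 276 CPM in the Lama4 KO. The remaining libraries had under 20 cells of these classes. Bmp6, a BMP ligand known from liver endothelium for its part in iron homeostasis, was at 94.9, 119 and 126 CPM in ependymal-like cells, of which each library held 25 to 55. Of the classes compared, smooth muscle-like cells were next at 6.65, 14.9 and 24.3 CPM, and endothelial-like cells were at 1.14, 2.31 and 4.59 CPM. Outside this order, fibroblast-like cells held Bmp6 at 135 and 83.6 CPM in the Lama4 WT and at 55.9 CPM in the Lama4 KO. Choroid plexus-like cells held it at 89.8 and 68.5 CPM in the Lama4 WT and at 85.9 CPM in the Lama4 KO. Both classes numbered under 20 cells in each Lama5-experiment library. The pericyte-like cells of every library held no Bmp6 UMI.

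Of the receptors, Eng was at 597, 618 and 709 CPM in endothelial-like cells and at 162, 190 and 216 CPM in pericyte-like cells. All other classes compared were at most at 77.8 CPM, so pericyte-like cells stood between the endothelium and the rest of these classes. Acvrl1 was at 369, 391 and 525 CPM in endothelial-like cells and at most at 50.4 CPM in pericyte-like cells. Bmpr2, the type II receptor for BMPs, was at 507, 543 and 588 CPM in endothelial-like cells. It was between 45.4 and 239 CPM in every other class compared. Tgfbr2, the type II receptor for TGF-beta, was at 255, 268 and 285 CPM in endothelial-like cells. Its ranges in microglia-like cells (149, 275 and 299 CPM) and perivascular macrophage-like cells (209, 233 and 320 CPM) overlapped with that one, so no order among these 3 classes can be read. Microglia-like Tgfbr2 split by experiment, with the 3 Lama4-experiment libraries the lowest of the 7.

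Smad6 was at 45.6, 48.6 and 60.3 CPM in endothelial-like cells and at most at 13.8 CPM in any other class compared. Smad7 had another order: oligodendrocyte-like cells were at 435, 580 and 648 CPM, microglia-like cells at 269, 330 and 432 CPM and endothelial-like cells at 190, 301 and 331 CPM. The last 2 ranges overlapped. Of the targets, Id1 was at 1265, 1332 and 1536 CPM in endothelial-like cells, and pericyte-like cells, next in order, were at 52.4, 239 and 345 CPM. Id3 was at 1355, 1413 and 1583 CPM in endothelial-like and at 1200, 1395 and 2148 CPM in smooth muscle-like cells, which overlapped. In the other classes compared Id3 was at no more than 716 CPM. Fibroblast-like cells, outside this order, held Id3 at 1313 and 1051 CPM in the Lama4 WT and at 1345 CPM in the Lama4 KO. They numbered under 20 in each Lama5-experiment library. The paired target genes therefore differed in smooth muscle-like cells, which held Id3 in the endothelial range and Id1 at 191 to 301 CPM. Pericyte-like cells split by experiment. In the Lama4 experiment they held Id1 at 52.4 to 69.5 CPM and Id3 at 558 to 716 CPM. In the Lama5 experiment Id1 was at 239 to 345 CPM and Id3 at 317 to 425 CPM.

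**Figure D1:**
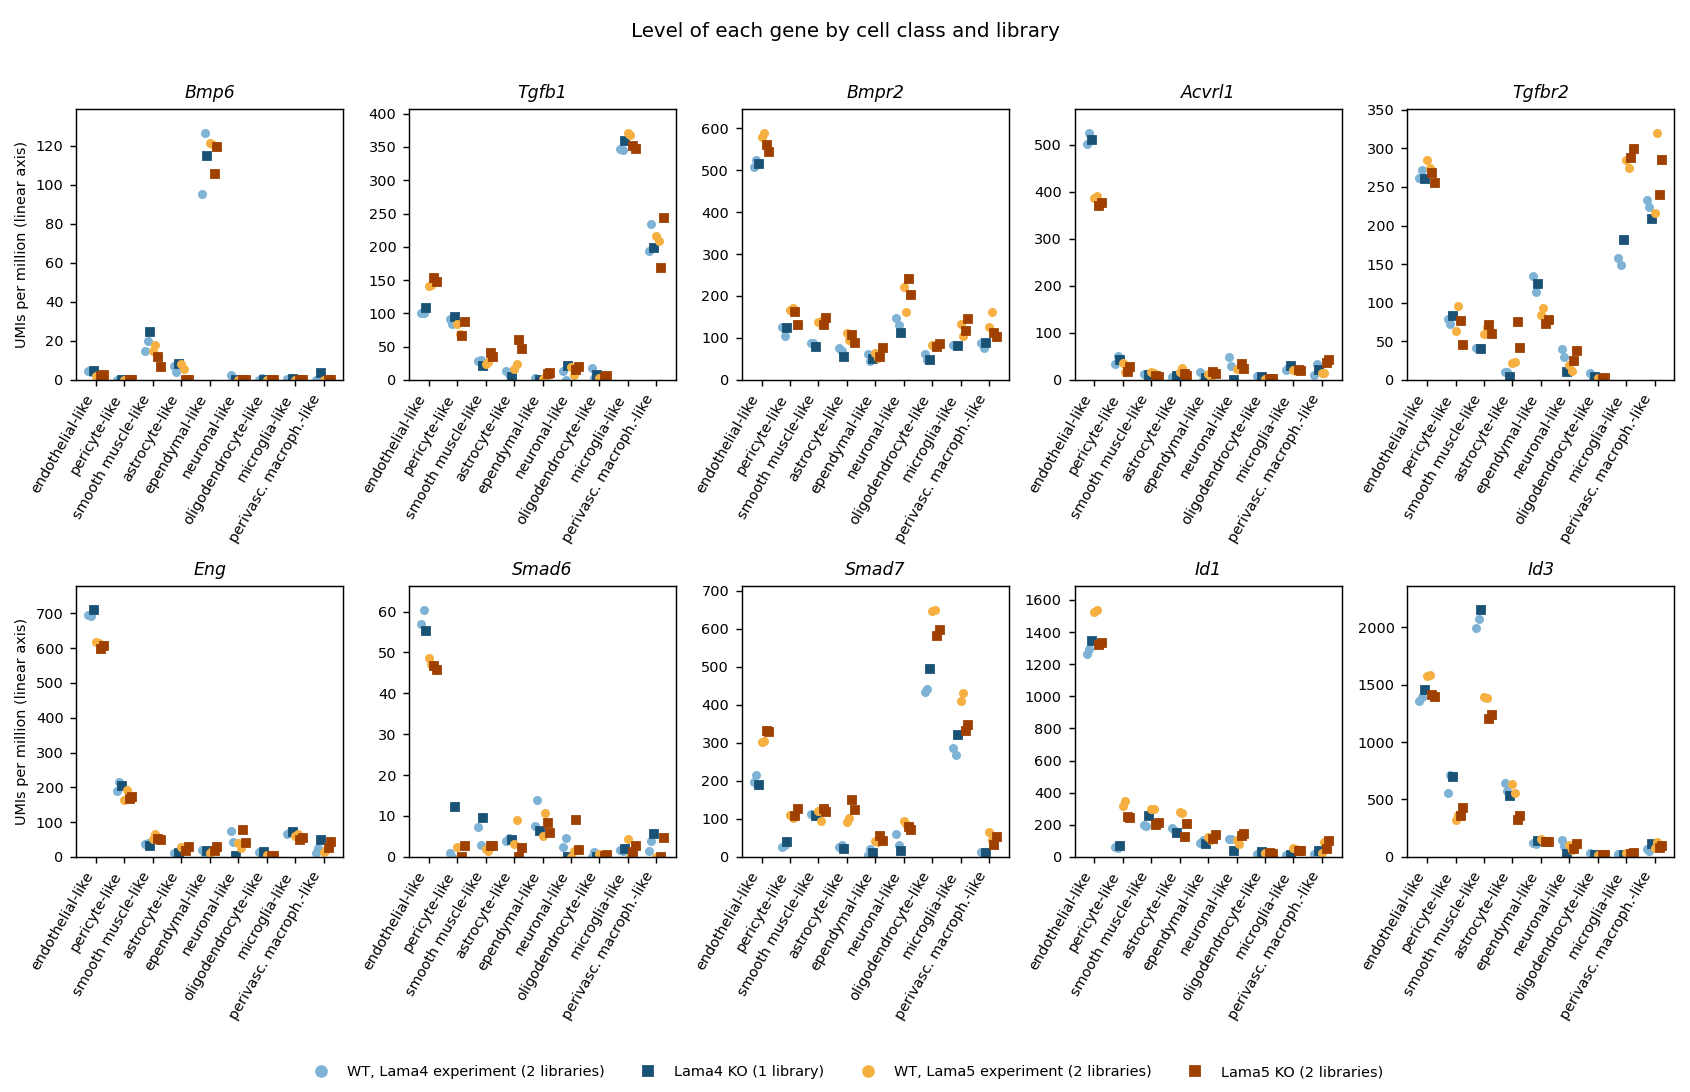
Level of each of the 10 genes (vertical axes, CPM on a linear scale that differs between panels) in 9 cell classes (horizontal axis). Each point is 1 of the 7 libraries, circles for WT and squares for KO. Id1, Smad6, Eng, Acvrl1 and Bmpr2 have all endothelial-like points above all others, and Smad7 is highest in oligodendrocyte-like cells.

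The wider pattern of each gene was compared over 18 cell groups (the endothelial zones and the other cell classes), as the Pearson r of mean log2(CPM + 1) with 12581 genes. These groups share libraries and depth, so the values only describe. Smad6 was most like Pdgfd (r = 0.933) and Mecom (0.932), both known from arterial endothelium. Eng was most like Tmem204 (0.963) and Kitl (0.953), and Bmpr2 most like Kitl (0.933) and Aida (0.930). Id1 was most like Bvht (0.929) and Reck (0.924), and Id3 most like Tsc22d1 (0.924) and Fzd4 (0.917). Acvrl1 was most like Dennd3 (0.929) and Sgms1 (0.924). For Tgfb1 the leading genes were B2m (0.924) and Psmb8 (0.911), which act in antigen presentation, and for Tgfbr2 Dtx3l (0.914) and Trim56 (0.903). Smad7 had no close partner: its leading genes were Rasgrp3 (0.843) and Foxn3 (0.820). For Bmp6 they were Zc2hc1c (0.926) and BC067074 (0.913). Among the 10 genes themselves, Eng and Bmpr2 were the most alike (0.920), followed by Id1 and Smad6 (0.865) and by Id1 and Id3 (0.824). Tgfb1 and Bmp6 were the least alike (-0.531).

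Along the vessel, endothelial-like cells were split into sub-clusters that were named arterial-like, capillary-like or venous-like from zone markers. The 10 genes and the wider pathway list were left out of the genes used for clustering. Arterial-like cells numbered 213 to 434 per library, capillary-like cells 1253 to 2299 and venous-like cells 241 to 538. The 15 arterial markers summed to 7825 to 13840 CPM in the arterial-like zone, to 634 to 840 CPM in the capillary-like and to 430 to 666 CPM in the venous-like zone. Sub-clusters 3 and 6 had 6 of the 15 arterial markers raised and stayed unnamed, with 286 to 862 cells per library. Further unnamed sub-clusters count towards the endothelial-like sums but belong to no zone shown. Their share of endothelial-like cells ranged from 9.219% to 9.685% over Lama4-experiment libraries. Lama5 WT libraries held 20.82% and 19.45%, Lama5 KO libraries 22.53% and 23.37%. What this share adds to the endothelial-like differences was not tested. Sub-cluster 0 (3852 cells, median 1860.5 UMIs) had 6 of the 10 capillary markers raised. Sub-cluster 15 (327 cells) had 13 of the 15 arterial markers raised. Both were left unnamed for leading genes of another cell class, so the arterial-like zone leaves out some cells with raised arterial markers. The zones are clusters of the same cells, so the levels below are a description with no test, and the spread over libraries covers 4 pools of mice.

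Smad6 had the largest arterial-like over capillary-like ratio of the genes other than Bmp6, whose counts were low. It was at 188 and 160 CPM in the arterial-like zone of the Lama4 WT, 145 CPM in the Lama4 KO, 149 and 139 CPM in the Lama5 WT and 144 and 144 CPM in the Lama5 KO. In sub-clusters 3 and 6 it was at 46.9 to 63.1 CPM, in the capillary-like zone at 26.5 to 34.2 CPM and in the venous-like zone at 17.9 to 24.3 CPM, and these 4 ranges did not overlap. The arterial-like level was 5.10-fold the capillary-like level (log2 2.35 ± 0.13 SD, n = 7 libraries). At an equal depth of 2000 UMIs per cell, 17.6% to 26.8% of arterial-like, 4.42% to 6.35% of capillary-like and 3.79% to 5.24% of venous-like cells held a Smad6 UMI. Without thinning these shares were 48.9% to 77.0%, 7.87% to 18.4% and 14.1% to 29.0%. In microglia-like cells, used as a class that should lack it, the thinned share was at most 0.667%. Median depths before thinning were 6180 to 13340 UMIs in arterial-like and 2840 to 7263 in microglia-like cells.

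Eng was at 956 to 1054 CPM in the arterial-like, 570 to 710 CPM in the capillary-like and 419 to 453 CPM in the venous-like zone, again with no overlap. Arterial-like cells stood 0.69 ± 0.13 (SD, n = 7) above capillary-like cells on the log2 scale, and venous-like cells were the lowest in every library. Acvrl1 was at 481 to 667 CPM in the arterial-like zone and was above the capillary-like zone of the same library in 7 of 7 (log2 0.49 ± 0.13, SD), but the ranges over libraries overlapped, with the Lama4 experiment higher in both zones. Tgfbr2 was at 277 to 368 CPM in the arterial-like, 240 to 260 CPM in the capillary-like and 242 to 274 CPM in the venous-like zone (arterial-like over capillary-like log2 0.35 ± 0.17, SD, n = 7). Sub-clusters 3 and 6 were at 289 to 368 CPM for Tgfbr2, level with the arterial-like zone. Bmpr2, the fourth receptor, was nearly flat: 507 to 619 CPM arterial-like, 549 to 594 CPM capillary-like and 476 to 594 CPM venous-like.

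Bmp6 was highest in the arterial-like zone of every library. The level there was 19.0 and 17.4 CPM in the Lama4 WT, 12.6 CPM in the Lama4 KO, 9.11 and 6.23 CPM in the Lama5 WT and 11.7 and 13.1 CPM in the Lama5 KO. It was at most 1.19 CPM in the capillary-like and 0.490 CPM in the venous-like zone. Thinned to 2000 UMIs, 0.754% to 3.46% of arterial-like cells held a Bmp6 UMI, against at most 0.297% of capillary-like, 0.210% of venous-like and 0.0904% of microglia-like cells. Tgfb1 did not separate the zones: its arterial-like over capillary-like log2 ratio was -0.040 ± 0.14 (SD, n = 7), and the venous-like zone was the highest in 5 of 7 libraries. Smad6, Eng, Acvrl1, Tgfbr2 and Bmp6 thus had their highest named zone in the arterial-like cells of all 7 libraries, and also with zones set by marker score per cell, with doublet-scored cells kept and with a stricter cell filter.

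Id1, Id3 and Smad7 were zoned differently in the 2 experiments. Id1 was at 1485 and 1477 CPM in the arterial-like zone of the Lama4 WT and at 1275 and 1291 CPM in the capillary-like zone. In the Lama5 WT it was at 1498 and 1563 CPM in the arterial-like and at 1773 and 1751 CPM in the capillary-like zone. The arterial-like zone was therefore the higher of the pair in 3 of 3 libraries of the Lama4 experiment (log2 0.18 ± 0.054, SD) and the lower in 4 of 4 of the Lama5 experiment (-0.24 ± 0.053, SD). For Id3 the corresponding log2 ratios were 0.16 ± 0.062 (SD, n = 3) and -0.44 ± 0.084 (SD, n = 4). For Smad7 they were 0.53 ± 0.0072 (SD, n = 3) and -0.014 ± 0.048 (SD, n = 4). For Id1 and Id3 the capillary-like zone differed most between the WT groups, and its dissociation genes summed to 9097 to 9888 CPM in the Lama4 and 25180 to 26870 CPM in the Lama5 experiment. The makeup of this zone also differed: sub-clusters 2 and 9, with the stress gene Atf3 among their leading genes, held 6.7% to 7.4% and 0.7% to 0.8% of its cells in the Lama4 experiment and 36.2% to 40.5% and 9.4% to 12.5% in the Lama5 experiment. The part of either in the Id result was not tested. What all libraries shared was the venous end: Id1, Id3, Smad6, Smad7 and Eng were lower in the venous-like than in the arterial-like and capillary-like zones of 7 of 7 libraries.

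**Figure D2:**
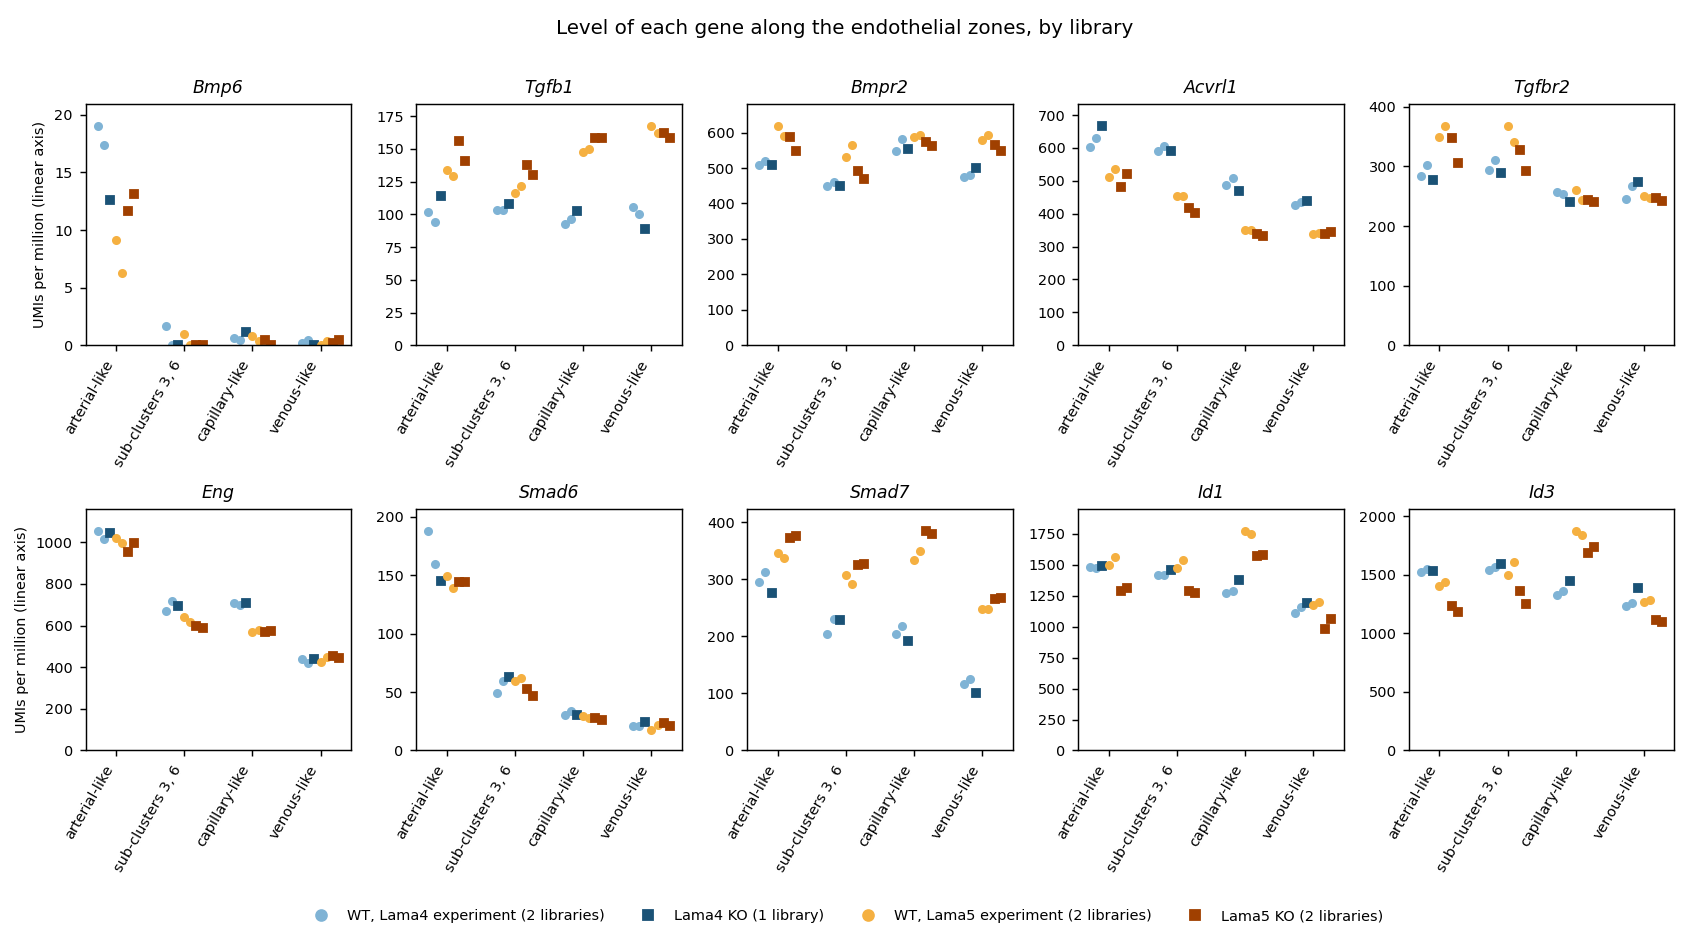
Level of each of the 10 genes (vertical axes, CPM on a linear scale from 0) in 3 named endothelial zones and in the unnamed sub-clusters 3 and 6. Points are the 7 libraries, in blue for the Lama4 and orange to brown for the Lama5 experiment. Smad6 and Bmp6 drop from the arterial-like zone to all others, Eng steps down to the venous-like zone, and Id1 and Id3 are highest in the capillary-like zone in the Lama5 experiment but not in the Lama4 experiment.

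The loss of Lama5 through Tek-Cre was compared with its own WT to ask how the endothelium of these mice differs. In endothelial-like cells Id1 and Id3 were lower in the Lama5 KO, and Smad7 and Tgfb1 were higher. All 4 differences were at most 0.20 on the log2 scale, and none of the 4 receptors among the 10 genes passed the test. From here on the values of genes set between groups are CPM scaled by the trimmed mean of M-values (TMM) over the libraries compared, unless said otherwise, so they differ slightly from the unscaled levels above, while summed marker levels stay unscaled. They are given in the order of the library numbers, and the test is edgeR's quasi-likelihood F test with Benjamini-Hochberg adjustment over all genes. Id1 was at 1485 and 1495 CPM in the WT against 1354 and 1375 CPM in the KO (log2 -0.13, SE 0.018, edgeR adjusted p = 1.22e-05). Id3 was at 1536 and 1541 CPM in the WT against 1447 and 1438 CPM in the KO (log2 -0.092, SE 0.018, edgeR adjusted p = 4.74e-04). Both KO libraries lay below both WT libraries for each gene. Smad7 was at 293 and 297 CPM in the WT against 339 and 339 CPM in the KO (log2 0.20, SE 0.023, edgeR adjusted p = 5.00e-07). Tgfb1 was at 137 and 139 CPM in the WT against 156 and 152 CPM in the KO (log2 0.16, SE 0.030, edgeR adjusted p = 3.13e-04). For these 2 genes both KO libraries lay above both WT libraries.

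All 10 genes passed the filter on low counts in endothelial-like cells, and 4 of 10 were called. Of all 13208 genes tested, 18.9% were called, 10.5% higher and 8.35% lower in the KO. The median log2 difference was 0.020 over the 10 genes and -0.0012 over all genes. Among the genes not called, Eng was at 602 and 597 CPM in the WT against 611 and 627 CPM in the KO (edgeR adjusted p = 0.132). Bmp6 was at 1.81 and 1.11 CPM in the WT against 1.96 and 2.39 CPM in the KO (edgeR adjusted p = 0.148). The groups of neither gene overlapped, and nor did those of 57% of all genes tested. Bmpr2, Smad6, Tgfbr2 and Acvrl1 had log2 differences between -0.020 and 0.023 and overlapping groups.

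The calls of Id1, Id3 and Smad7 were made in 11 of 11 alternative settings and that of Tgfb1 in 10 of 11. With totals left unscaled the median of all genes moved by -0.080 and the called genes changed from 1391 higher and 1103 lower to 780 higher and 2809 lower. Tgfb1 then had log2 0.081 (edgeR adjusted p = 0.0537), while Tgfbr2 (-0.099, edgeR adjusted p = 0.0122) and Bmpr2 (-0.078, edgeR adjusted p = 0.0133) were called lower. Other measures moved with the genotype in the same cells. The 9 microglia markers summed to 99.8 and 98.9 CPM in the WT against 124 and 126 CPM in the KO, with 8 of the 9 above both WT libraries. The 16 dissociation genes summed to 23900 and 24070 CPM in the WT against 22040 and 21710 CPM in the KO, with 11 of the 16 below both WT libraries. Median UMIs per cell over all cells were 3877.5 and 3661 for the WT against 3195 and 2945 for the KO. The 9 choroid plexus markers summed to 52.2 and 53.7 CPM in the WT against 143 and 139 CPM in the KO, with 5 of the 9 above both WT libraries. The 5 erythrocyte markers summed to 316 and 318 CPM in the WT against 67.6 and 59.2 CPM in the KO. The part of any of these in the differences was not tested.

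The zones were fitted one by one. In the arterial-like zone 3 of 10 genes were called, against 3.66% of all genes: Id1 at 1471 and 1538 CPM in the WT against 1318 and 1357 CPM in the KO (log2 -0.17, SE 0.039, edgeR adjusted p = 0.0111), Id3 (-0.17, edgeR adjusted p = 0.00829) and Smad7 (0.19, edgeR adjusted p = 0.0444). The Smad7 call was lost in 8 of 12 alternatives, DESeq2, the replicate block and the loss of any 1 library among them. Without either WT library none of the 3 was called. In the venous-like zone the same 3 genes were called of 9 tested, against 9.42% of all genes, with Id1 at 1164 and 1170 CPM in the WT against 1001 and 1092 CPM in the KO (log2 -0.16, SE 0.035, edgeR adjusted p = 6.86e-04). Without WT library 2 only 1 of the 3 was called there. Id3 (log2 -0.15) and Smad7 (0.17) went in the same directions as in the arterial-like zone, and the Smad7 call was lost in 5 of 12 alternatives. The median log2 difference over the genes tested was 0.010 in the arterial-like, 0.034 in the capillary-like and 0.038 in the venous-like zone, and over all genes it lay between -0.0045 and -0.00028. In both the arterial-like and the venous-like zone the Id1 and Id3 values of each KO library were below those of each WT library. The groups did not overlap for 44.4% of all genes in the arterial-like and 48.6% in the venous-like zone. The summed dissociation genes were also lower in the KO, with 22050 and 22260 CPM in the arterial-like WT and 18710 and 20050 CPM in the KO (14 of 16 below both WT libraries), and their part was not tested.

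The capillary-like zone differed in which genes passed. Smad7 was at 325 and 339 CPM in the WT against 396 and 395 CPM in the KO (log2 0.25, SE 0.034, edgeR adjusted p = 1.25e-11). Tgfb1 was at 143 and 145 CPM in the WT against 162 and 165 CPM in the KO (log2 0.18, SE 0.046, edgeR adjusted p = 0.00161). Eng was at 554 and 562 CPM in the WT against 586 and 599 CPM in the KO (log2 0.087, SE 0.030, edgeR adjusted p = 0.0335). These were 3 of 9 genes, all higher, where 7.84% of all genes were called higher and 12.9% in either direction. Higher genes made up 60.6% of the calls, and 21.8% with unscaled totals. The Eng call was lost in 10 of 12 alternatives and with unscaled totals its log2 difference was -0.0048. The Tgfb1 call was lost in 3 of 12, with DESeq2, without a low-count filter and with unscaled totals. Id1 was at 1723 and 1697 CPM in the WT against 1616 and 1643 CPM in the KO (log2 -0.070, edgeR adjusted p = 0.0511), and Id3 overlapped between the groups (-0.025, edgeR adjusted p = 0.633). With the replicate block, the stricter cell filter, zones by marker score or unscaled totals Id1 was called lower in this zone. Id3 was called lower with unscaled totals. The makeup of the zone moved with the genotype: sub-cluster 1 held 21.1% and 20.4% of its cells in the WT against 16.7% and 17.2% in the KO, sub-cluster 2 36.2% and 37.3% against 39.8% and 40.5%, and sub-cluster 9 9.8% and 9.4% against 12.5% and 11.1%. Its part in these values was not tested. Tgfb1 and Eng were not called in the other named zones, but their differences were not all smaller there. Tgfb1 had log2 0.24 in the arterial-like zone, where it was called in 3 of 12 alternatives, and 0.017 in the venous-like zone. Eng had log2 0.093 in the venous-like zone, where it was called in 3 of 12 alternatives, and 0.017 in the arterial-like zone. Whether the effect differed between zones was tested with an interaction term, and none of the 10 genes passed. Of all genes, 0.483% passed for arterial-like and 0.181% for venous-like against capillary-like. The nearest was Id3, whose difference was 0.15 lower in the arterial-like than in the capillary-like zone on the log2 scale (-0.15, SE 0.046, edgeR adjusted p = 0.145), and an unadjusted p under 0.05 was met by Id1, Id3 and Bmp6 in that contrast and by Id1, Id3 and Tgfb1 in the venous-like one.

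**Figure D3:**
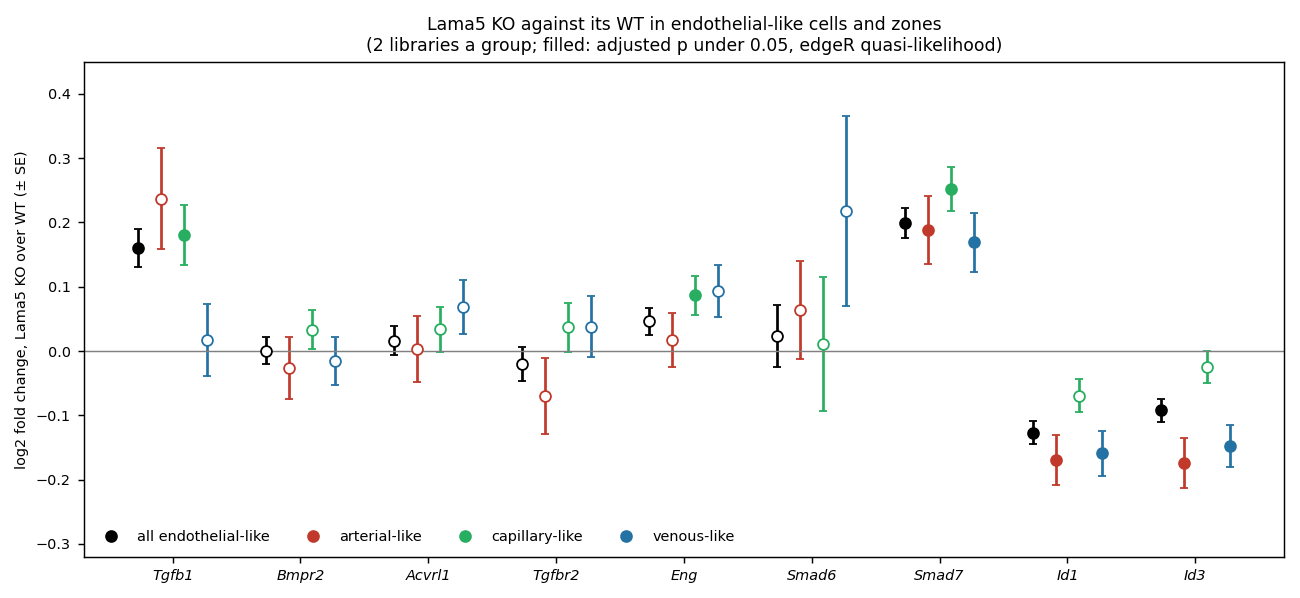
Log2 fold change of the Lama5 KO over its WT (vertical axis, points with SE bars, 2 libraries a group) for 9 of the 10 genes in all endothelial-like cells and in 3 zones. Filled points have an edgeR adjusted p under 0.05. Smad7 lies above 0 in all 4 sets and Id1 below 0, with Id1 at -0.070 in the capillary-like and -0.17 in the arterial-like zone. Bmp6 is left out because its counts were too low in 2 zones.

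In the wider list of 58 other pathway genes, 42 were tested in the endothelial-like sums of this comparison, 10 were higher and 2 lower, and 30 did not pass, where 10.5% of all genes were called higher and 8.35% lower. Their median log2 difference was 0.11 (all genes -0.0012). By role, 2 of 4 ligands, 3 of 7 inhibitory Smads and feedback genes and 2 of 7 Id and other target genes were higher and none lower. Of 8 receptors 2 were higher and 1 lower, of 10 extracellular modulators 1 was higher and 1 lower, and none of the 6 signal-transducing Smads passed. Lrrc32, which anchors latent TGF-beta at the cell surface, was at 48.5 and 38.8 CPM in the WT against 58.7 and 66.0 CPM in the KO (log2 0.51, edgeR adjusted p = 4.22e-06). Ltbp4, a latent TGF-beta binding protein, was at 630 and 624 CPM in the WT against 543 and 566 CPM in the KO (log2 -0.18, edgeR adjusted p = 1.10e-06). The feedback genes Tgif1 (log2 0.32), Skil (0.23) and Ski (0.098), the type I receptor Tgfbr1 (0.21) and the ligand Tgfb2 (0.15) were called higher. So were Id4 (0.21) and Id2 (0.11): Id2 was at 259 and 258 CPM in the WT against 277 and 284 CPM in the KO, above both WT libraries, while its paralogs Id1 and Id3 were lower.

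Outside the endothelium, Id1 was lower and Tgfb1 higher in smooth muscle-like cells of the Lama5 KO. Id1 was at 293 and 288 CPM in the WT against 208 and 218 CPM in the KO (log2 -0.45, SE 0.070, edgeR adjusted p = 1.33e-04). Tgfb1 in these cells was at 23.4 and 26.6 CPM in the WT against 41.5 and 35.3 CPM in the KO (log2 0.62, SE 0.18, edgeR adjusted p = 0.0436). These were 2 of 9 genes tested, against 5.34% of all genes, and the median log2 difference was -0.089 over the 9 and -0.0044 over all genes. The Id1 call was lost under the stricter cell filter (edgeR adjusted p = 0.0982) and the Tgfb1 call in 6 of 10 alternatives. With the stricter filter the cells were clustered anew. The class then fell from 378 and 406 to 104 and 130 cells in the WT libraries, and from 419 and 451 to 155 and 143 cells in those of the KO. The 9 microglia markers, a class with high Tgfb1, summed to 86.4 and 88.7 CPM in smooth muscle-like cells of the WT and to 129 and 135 CPM in the KO, 7 of 9 above both WT libraries, and their part in the Tgfb1 value was not tested. The dissociation genes summed to 24060 and 23640 CPM in the WT against 20160 and 20530 CPM in the KO, 12 of 16 below both WT libraries. The 9 endothelial markers, a class with high Id1, summed to 426 and 534 CPM in the WT against 324 and 241 CPM in the KO, 7 of 9 below both WT libraries. The 11 pericyte markers summed to 12540 and 12470 CPM in the WT against 10850 and 11470 CPM in the KO, 7 of 11 below both. The part of these 3 lists was not tested. Acvrl1 was at 16.8 and 13.3 CPM in the WT against 8.20 and 6.95 CPM in the KO (log2 -0.98, edgeR adjusted p = 0.0678). Bmp6 was at 14.5 and 17.4 CPM in the WT against 12.02 and 6.95 CPM in the KO (log2 -0.74, edgeR adjusted p = 0.184).

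In pericyte-like cells none of the 8 genes tested passed, against 0.555% of all genes. Id1 was at 330 and 358 CPM in the WT against 269 and 260 CPM in the KO (edgeR adjusted p = 0.341). The groups did not overlap for Id1, Id3 and Smad7, and for 39.8% of all genes tested. In microglia-like cells 1 of 8 passed, against 13.3% of all genes: Smad7 was at 402 and 422 CPM in the WT against 341 and 357 CPM in the KO (log2 -0.24, SE 0.056, edgeR adjusted p = 0.00333). This is the opposite direction to endothelial-like cells, the difference between the classes was not tested, and the call was lost with DESeq2 and without KO library 1. The dissociation genes in these cells summed to 18290 and 17930 CPM in the WT against 14460 and 14610 CPM in the KO, 14 of 16 below both WT libraries. The 9 microglia markers themselves summed to 17540 and 17520 CPM in the WT against 15270 and 14930 CPM in the KO, 8 of 9 below both. The part of either was not tested. Tgfb1, highest in these cells among the 9 classes compared, was at 363 and 360 CPM in the WT against 364 and 359 CPM in the KO.

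Astrocyte-like cells had 4 of 8 genes called, against 6.08% of all genes. Id3 was at 660 and 577 CPM in the WT against 326 and 364 CPM in the KO (log2 -0.84, SE 0.13, edgeR adjusted p = 3.03e-05), and Id1 at 291 and 279 CPM in the WT against 126 and 212 CPM in the KO (log2 -0.75, edgeR adjusted p = 0.00298). Tgfb1 was at 17.1 and 24.2 CPM in the WT against 60.8 and 47.1 CPM in the KO, and Tgfbr2 at 23.5 and 24.2 CPM in the WT against 76.0 and 42.8 CPM in the KO. For each of the 4 the groups did not overlap, and nor did they for 50.3% of all genes tested. The 9 microglia markers in these cells summed to 361 and 323 CPM in the WT against 1006 and 739 CPM in the KO, 8 of 9 above both WT libraries. Of the 9 classes compared, microglia-like cells are the one in which Tgfb1 was highest and Tgfbr2 among the highest. The 9 endothelial markers, a class with high Id1 and Id3, summed to 941 and 974 CPM in the WT against 614 and 677 CPM in the KO, 8 of 9 below both WT libraries. The 9 astrocyte markers summed to 17540 and 16930 CPM in the WT against 13470 and 14740 CPM in the KO, 8 of 9 below both, and the dissociation genes to 4766 and 5313 CPM in the WT against 5868 and 5714 CPM in the KO, 10 of 16 above both. The part of these lists in the 4 values was not tested. None of the 10 genes was called when doublet-scored cells were kept, where Tgfb1 had no test result. The cells were then clustered anew, and the class fell from 290 and 345 to 129 and 140 cells in the WT libraries. In those of the KO it fell from 217 and 221 to 51 and 64 cells. Without KO library 1 only Id3 was called.

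The Lama4 KO had 1 distinct library, so its comparison with the Lama4 WT has no test. A gene was counted as past the fold when the KO was at least 0.32 on the log2 scale above or below both WT libraries, among genes at 20 CPM or more. In endothelial-like cells none of the 9 genes at that level was past the fold, and 2.89% of all genes were. The median log2 difference was -0.055 over the 9 genes and -0.0086 over all genes at that level. Id1 was at 1287 and 1302 CPM in the WT against 1311 CPM in the KO (exact Poisson 95% interval 1294 to 1328, counting error only). Id3 was at 1379 and 1399 CPM in the WT against 1421 CPM in the KO (1403 to 1439). Smad7 was at 201 and 215 CPM in the WT against 185 CPM in the KO (179 to 192). Id1 and Id3 lay above, and Smad7 below, both WT libraries, and the Id1 interval spans the higher WT value. Eng was at 706 and 696 CPM in the WT against 693 CPM in the KO, and Bmp6 at 4.67 and 3.95 CPM in the WT against 4.24 CPM in the KO. Tgfb1 was at 102 and 101 CPM in the WT against 105 CPM in the KO. Smad6, Acvrl1, Tgfbr2 and Bmpr2 were below both WT libraries by log2 -0.135, -0.055, -0.082 and -0.056 relative to the WT mean. The 9 choroid plexus markers summed to 234 and 163 CPM in endothelial-like cells of the WT and to 1144 CPM in the KO, 9 of 9 above both WT libraries, and their part in these values was not tested.

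In the Lama4 KO's zones, given without TMM scaling, Smad6 was lower in the arterial-like zone (188 and 160 CPM in the WT against 145 CPM in the KO, interval 132 to 160, which reaches the lower WT value). In the venous-like zone it was at 20.7 and 21.0 CPM in the WT against 24.3 CPM in the KO (interval 19.6 to 29.7, which spans both WT values). Smad7 was lower in each named zone, with 116 and 126 CPM in the venous-like WT and 101 CPM in the KO (interval 91.6 to 112). Id3 in the venous-like zone was at 1229 and 1258 CPM in the WT against 1387 CPM in the KO (interval 1350 to 1425). Among 21 other pathway genes at 20 CPM or more, 3 were past the fold in endothelial-like cells. Tgfb2 was at 127 and 131 CPM in the WT against 196 CPM in the KO, Bambi, a decoy receptor, at 59.8 and 56.0 CPM in the WT against 77.7 CPM in the KO, and Hes1, a target of Notch signalling, at 292 and 256 CPM in the WT against 188 CPM in the KO.

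In other classes of the Lama4 KO, smooth muscle-like cells had 2 of 8 genes past the fold, against 9.82% of all genes. Id1 was at 199 and 190 CPM in the WT against 253 CPM in the KO (interval 231 to 276), and Tgfb1 at 28.4 and 29.4 CPM in the WT against 21.2 CPM in the KO (interval 15.3 to 28.6, which spans the lower WT value). The 9 microglia markers summed to 144 and 206 CPM in these cells of the WT and to 134 CPM in the KO, 7 of 9 below both WT libraries. The 9 choroid plexus markers summed to 143 and 95.3 CPM in the WT against 910 CPM in the KO, 9 of 9 above both. The 11 pericyte markers summed to 8013 and 7211 CPM in the WT against 5529 CPM in the KO, 10 of 11 below both, and the 10 smooth muscle markers to 46790 and 46750 CPM in the WT against 54510 CPM in the KO, 9 of 10 above both. The part of these lists was not tested. Pericyte-like cells had 1 of 8, against 16% of all genes: Smad7 at 26.0 and 30.6 CPM in the WT against 38.8 CPM in the KO (interval 26.0 to 55.7), which spans both WT values. Astrocyte-like cells had 0 of 4, against 9.32%, and microglia-like cells 0 of 7, against 5.27%.

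Set side by side, several of these genes lay on opposite sides of their own WT in the KOs. In smooth muscle-like cells Id1 was lower than both WT libraries in the Lama5 KO and higher than both in the Lama4 KO, and Tgfb1 the reverse. Over 5 cell classes, 36 gene and class pairs could be compared, of which 12 lay on opposite sides of their WT libraries and 5 on the same side. Over the 30310 gene and class pairs of all genes compared in this way, 23.1% lay on opposite sides and 17.7% on the same side. The difference between the KOs was not tested, since 1 of them has a single library and each has another WT.

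**Figure D4:**
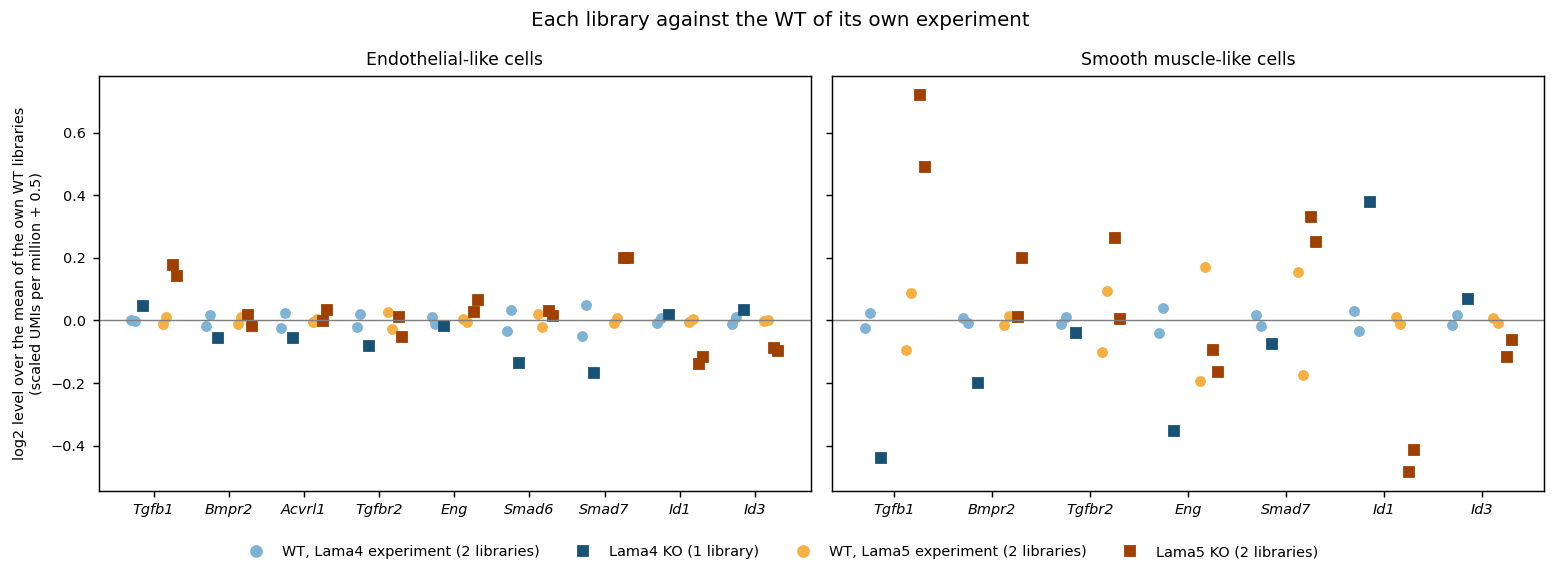
Log2 level of each library over the mean of the WT libraries of its own experiment (vertical axis, TMM-scaled CPM with a pseudocount of 0.5) in endothelial-like and smooth muscle-like cells. Circles are WT and squares are KO libraries. In endothelial-like cells Smad7 lies above its WT in the Lama5 KO and below it in the Lama4 KO, and in smooth muscle-like cells Id1 lies below and above.

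The WT groups of the experiments also differed from each other. In endothelial-like cells 9 of the 10 genes were called between them, against 56.2% of all genes. Smad7 was at 191 and 205 CPM in the Lama4 WT and at 313 and 317 CPM in the Lama5 WT (log2 0.67, SE 0.034, edgeR adjusted p = 2.87e-09). Tgfb1 was at 96.6 and 96.7 CPM in the Lama4 WT and at 146 and 149 CPM in the Lama5 WT (log2 0.61, edgeR adjusted p = 4.95e-09). Id1 (log2 0.37), Id3 (0.32), Bmpr2 (0.29) and Tgfbr2 (0.18) were also higher in the Lama5 WT. Bmp6 was lower there (4.43 and 3.77 CPM against 1.93 and 1.19 CPM, log2 -1.39), as were Acvrl1 (-0.29) and Smad6 (-0.18). Eng was the exception at 670 and 664 CPM and 643 and 639 CPM (edgeR adjusted p = 0.0729). What separates them, the experiment or the pools of mice, cannot be told apart.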

How the data were processed

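Single-cell 3′ libraries of mouse cortex were analysed in 4 groups. The deposited matrices hold unnormalized UMI counts for each gene and barcode, made by the authors with Cell Ranger 3.1.0, per the file headers, and the submitters' processing notes name mm10 and Seurat 3.1. The 10 genes and all lists were chosen with earlier results of these data known.

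Cells with under 500 genes or over 15% mitochondrial counts were removed, as were 3015 cells scored as doublets (0.8% per 1000 cells), which left 47239 of 56961 barcodes. Counts were scaled to 10000 per cell, and 2000 variable genes without the pathway genes, 30 principal components and 15 neighbours gave 42 Leiden clusters (python 3.11.15, scikit-learn 1.9.0, igraph 0.11.9). Clusters were named from at least 3 markers detected in 25% of cells at 2-fold, and endothelial sub-clusters as a zone when at least 50% of a zone's markers were raised. A cluster or sub-cluster that met this stayed unnamed when its leading genes held more markers of another class or zone. The same held for few UMIs with no marker of its own among the leading genes, and for a cluster with markers of a second class. Names were rebuilt from markers and may differ from the study's. No cell type annotation was used here.

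Counts were summed per library and cell class and tested with edgeR 4.0.16 (quasi-likelihood F test, TMM scaling, 2 libraries a group, only the groups compared, adjusted p threshold 0.05). Levels are CPM, ratios use a pseudocount of 0.5 CPM. Intervals are exact Poisson at 95% and cover counting error only. Replicate libraries differed beyond sampling noise. Genes named are the 10 members, at most 10 other pathway genes with the largest change among those called at 20 CPM or more for the Lama5 KO in endothelial-like cells, those past the fold in the Lama4 KO, and the 2 genes most like each member. Alternatives were DESeq2 1.42.0, RLE factors, no low-count filter, leaving out each library, cell filters, doublets kept, zones by score, a replicate block and unscaled totals.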

Additional observations from a re-analysis of the deposited data

Results flagged for a closer look

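For 12 of the 36 gene and class pairs compared, every library of the Lama5 KO lay on one side of its WT and the Lama4 KO library on the other side of its own. Over all genes compared in this way, 23.1% of 30310 pairs did so. None of these differences between the KOs was tested, and the counting interval of the Lama4 KO value for Id1 in endothelial-like cells (1294 to 1328 CPM) spans a WT value (1302 CPM). The interval of Tgfb1 in smooth muscle-like cells also spans its lower WT value. Intervals were not given for every pair, so a pair without one cannot be taken to clear counting error. In the Lama5 KO, Eng in endothelial-like cells, Id1 in pericyte-like cells and Smad7 in astrocyte-like cells were not called. Nor were Id3, Bmp6 and Smad7 in smooth muscle-like cells. In endothelial-like cells the log2 values, Lama5 KO first and Lama4 KO second, were -0.13 and 0.018 for Id1, -0.092 and 0.033 for Id3, 0.20 and -0.17 for Smad7, and 0.046 and -0.018 for Eng. In smooth muscle-like cells they were -0.45 and 0.38 for Id1, -0.089 and 0.068 for Id3, 0.62 and -0.44 for Tgfb1, -0.74 and 0.48 for Bmp6, and 0.29 and -0.074 for Smad7. In pericyte-like cells they were -0.38 and 0.27 for Id1, in astrocyte-like cells 0.45 and -0.48 for Smad7, and in microglia-like cells -0.24 and 0.15 for Smad7.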

How the results depend on the processing

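For the Lama5 KO 4 members were called in endothelial-like cells, and Id1, Id3 and Smad7 kept their call in 11 of 11 alternatives. Unscaled totals, chosen after seeing the data, turned Bmpr2 to -0.078 there and Eng to -0.0048 in the capillary-like zone, and by construction move all genes. Called genes in endothelial-like cells numbered 2494, 1031 with DESeq2 and 3589 with unscaled totals. The wider list had 16 calls with members included and 10 with DESeq2. DESeq2 gave 1 member in smooth muscle-like (2 in the main test), 1 in astrocyte-like (4), 0 in microglia-like (1) and 1 in capillary-like cells (3). Without a low-count filter smooth muscle-like and capillary-like cells had 1 each. The stricter cell filter, which also clustered the cells anew and left 104 to 155 Lama5-experiment cells per library in the class, left 0 in smooth muscle-like cells. Keeping doublet-scored cells, which also clustered the cells anew and left 51 to 140 Lama5-experiment cells per library in the class, left 0 in astrocyte-like cells. Tgfb1 had no test result there. Leaving out 1 library, with the spread then pooled over the groups, gave 1 to 2 calls in smooth muscle-like, 1 to 4 in astrocyte-like, 1 to 2 in microglia-like, 0 to 2 in arterial-like, 2 to 3 in capillary-like and 1 to 2 in venous-like cells.

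In the Lama4 KO, members past the fold were 1 in pericyte-like cells (0 at 1.5-fold, 2 with no minimum level, 1 to 2 without 1 WT library), 2 in smooth muscle-like cells (0 at 1.5-fold, 1 with doublet-scored cells kept, 0 with the stricter filter, 2 to 3 without 1 WT library), 0 in astrocyte-like cells (3 with no minimum level, 1 with doublet-scored cells kept, 1 to 1 without 1 WT library) and 0 in microglia-like cells (0 to 1 without 1 WT library). The stricter filter clustered the cells anew, and smooth muscle-like cells fell from 249 to 348 per Lama4-experiment library to 136 to 165. The cause was not tested.

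The replicate numbers did not pair the libraries (correlations of deviations -0.0815 to 0.0408). A replicate block gave 4 members in endothelial-like, 3 in smooth muscle-like, 2 in arterial-like and 4 in capillary-like cells and 2710 called genes in endothelial-like cells. Low counts limit Bmp6 and, outside the endothelium, Smad6.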
